A study of Mus musculus with 12 samples.

Results

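Mouse libraries labelled P56-NSC and AST were compared by RNA sequencing, with 3 libraries in each group. The AST group held mouse astrocytes at 0 days of incubation, which the design used as the negative control for stem-like cells induced from astrocytes in spheres. The P56-NSC group was labelled as neural progenitor cells derived from brain and served as a positive control. Both groups came from C57BL/6 mice, with brain as the tissue, and RNA was extracted with Trizol and made into libraries from 3 µg of RNA. The labels do not spell out P56, nor give the age, the number or the pooling of the mice, nor how either cell type was isolated, nor whether the P56-NSC cells were kept in culture. The labels do not say whether the 3 libraries within each group were made from different animals or cultures, so p-values reflect the spread among libraries, part or all of which may be technical. The study held 12 libraries in 4 groups, and the other 6 libraries entered the fit only to estimate the spread.

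Levels are given as FPKM, the fragments of a gene per kilobase of its length and per unit of sequencing depth, in the authors' own scaling, and always in the order of libraries 1, 2 and 3. The comparison covered 14367 genes, those with a gene name and 1 FPKM or more in at least 3 of the 6 libraries, out of 55421 named entries in the table. Of these genes, 10581 reached 1 FPKM in all 6 libraries, 1912 reached it in 0 AST libraries and 808 reached it in 0 P56-NSC libraries. The 2823 genes that just met the rule, with 1 FPKM in exactly 3 libraries, had a median level of 1.55 FPKM over the 6 libraries, and the 539 named genes with 1 FPKM in exactly 2 libraries had a median of 0.751 FPKM. A gene that entered through the group where it is high had to differ, so list counts below cover the tested genes and not every gene of a list. By biotype, 12639 genes were protein coding, 696 were processed pseudogenes and 673 were long noncoding RNAs.

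Neural stem cells of the adult brain lie mainly beside the lateral ventricles and in the dentate gyrus of the hippocampus. They share many genes with astrocytes, and their dividing descendants, the progenitors, carry mitosis genes and go on to make neurons or oligodendrocytes. Astrocytes in tissue take up glutamate and potassium and surround synapses and vessels. Astrocytes kept on plastic in serum commonly divide, spread, build actin stress fibres and deposit matrix.

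Read totals recovered from the table were 17077780, 21543424 and 18862805 in AST and 22285109, 21575734 and 21380187 in P56-NSC. For a gene 1 kb long, a single read amounted to 0.0493 to 0.0623 FPKM. No 2 libraries agreed within sampling noise, so each was counted as 1 sample. AST library 2 stood apart from AST libraries 1 and 3: the chi-square per degree of freedom was 43.5 and 45.0 against those libraries, compared with 2.63 between libraries 1 and 3. Its deviations from the group mean fell with gene length (Spearman rho -0.48 across genes, against 0.39 and 0.41 in the other 2), so short genes were high and long genes low in it. The P56-NSC pairs differed by 6.77 to 16.2 per degree of freedom. Genes of the mitochondrial genome took 2.94%, 4.70% and 3.17% of reads in AST and 16.5%, 17.6% and 17.0% in P56-NSC, against at most 7.03% in the other 6 libraries of the study. The 10 most abundant genes took 6.46% to 8.28% of reads in AST and 21.0% to 22.0% in P56-NSC.

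Gene expression differed widely between the groups. A gene was called at a limma adjusted p below 0.05, and changes are on the scale of log2(FPKM + 1), P56-NSC minus AST, which understates the change of low genes. Below, "rose" and "fell" mean called and changed 2-fold or more on that scale, toward higher and lower levels in P56-NSC. A total of 11086 genes were called, or 77.2% of the 14367 tested. P56-NSC was higher in 5396 of them (37.6%) and lower in 5690 (39.6%). At 2-fold or more, 5847 genes were called (40.7%), of which 3159 rose (22.0%) and 2688 fell (18.7%). The groups did not overlap for 82.3% of genes. Among the genes given below with all 6 values, the groups overlapped for Actg2, Dlx2, H2-K1, Hk1, Nefm, Rplp1, Sox11 and Tyrobp, and for no other. The middle of the distribution lay near 0, with a median log2 change of -0.05 and quartiles of -0.76 and 0.84. At 64-fold or more, 57 genes rose and 25 fell. Without AST library 2, 5798 genes were called at 2-fold or more. The split of directions depends on the scaling. The library totals that the authors' values imply were 0.982, 0.941 and 0.985 of the recovered reads in AST. In P56-NSC they were 0.779, 0.744 and 0.770, and a smaller total gives a higher FPKM. When every library was instead given the same FPKM sum, the median of all genes moved to -0.44 and 34.7% of the 2-fold calls were higher in P56-NSC, compared with 54.0% in the authors' scaling. With limma's voom, which tests recovered reads in place of log2(FPKM + 1), the median was -0.40 and 41.5% were higher. With the same FPKM sum over nuclear genes alone, the median was -0.007 and 56.05% were higher. Changes near 0 therefore depend on the scaling.

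**Figure D1:**
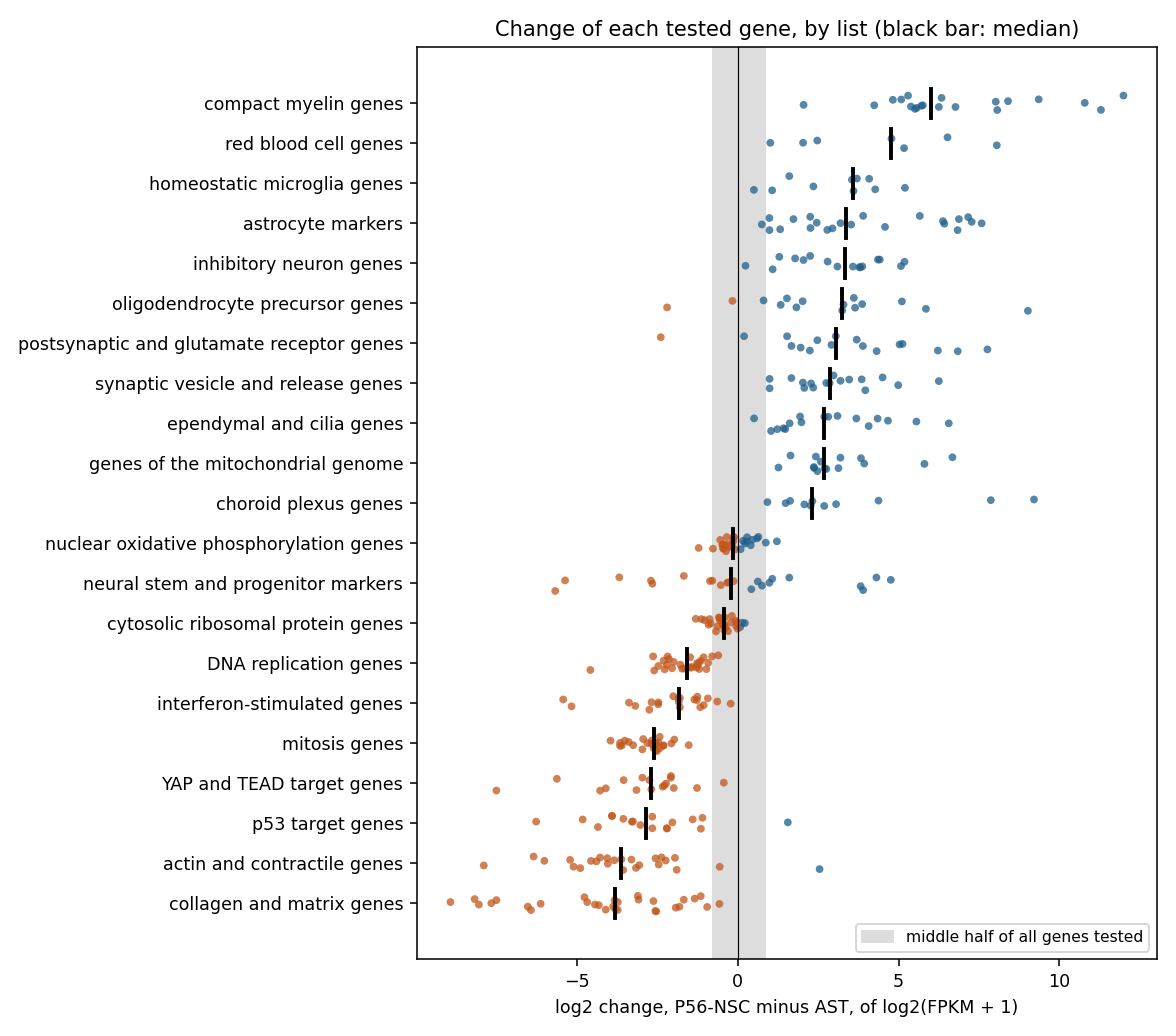
Log2 change (P56-NSC minus AST, of log2(FPKM + 1)) of each tested gene in 21 gene lists. Each point is a gene, blue above 0 and orange below, the black bar is the list's median and the grey band holds the interquartile range of all 14367 genes tested. Myelin genes lie farthest to the right (median 6.00), and matrix genes farthest to the left (median -3.82).

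The genes with the largest rises were genes of mature glia and neurons, choroid plexus and blood. Mbp, the myelin basic protein, was at 0.282, 0.291 and 0.312 FPKM in AST and 4994, 5159 and 5659.7 FPKM in P56-NSC (log2 change 11.99, SE 0.08, limma adjusted p = 8.92e-17). Mobp, another myelin protein, was listed at 0 in all 3 AST libraries and at 2419.6, 2394 and 2704 FPKM in P56-NSC. Against a floor of 3 reads per AST library it was 105424-fold higher. That fold is not a firm lower bound, since 0 in this table need not mean absence. Of the 15 genes with the largest rises, Cldn11, Mal, Mog, Mag and Bcas1 also belong to myelinating oligodendrocytes. Kif5a, a motor protein of axons, was at 0.6996, 0.896 and 0.824 FPKM in AST and 1328, 1641 and 1189 FPKM in P56-NSC. Ddn, a protein of dendrites, was at 0.0158, 0.0522 and 0.05696 FPKM in AST and 314, 362 and 294 FPKM in P56-NSC. Slc6a11, a GABA transporter of astrocytes, was at 0.0354, 0.0586 and 0.0853 FPKM in AST and 309, 401 and 259 FPKM in P56-NSC. Others were Fam107a, Enpp2, Ttr and Hba-a1. These 15 genes were taken from called genes whose groups did not overlap, so a gap between the groups was a condition of the choice.

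The genes with the largest falls were genes of matrix, contraction and growth factor binding. Thbs1, the matrix protein thrombospondin, was at 773, 604 and 792 FPKM in AST and 0.398, 0.3898 and 0.6398 FPKM in P56-NSC (log2 change -8.93, SE 0.15, limma adjusted p = 2.19e-13). Timp1, an inhibitor of matrix proteases, was at 321, 423 and 309 FPKM in AST and 0.195, 0.1403 and 0.273 FPKM in P56-NSC. Lgals1, a galectin, was at 2097, 3140.1 and 2054 FPKM in AST and 14.04, 12.01 and 17.7 FPKM in P56-NSC, and AST library 2 was the highest of the 6. Igfbp2, a protein that binds insulin-like growth factors, was among the most abundant genes of AST at 4801, 6283 and 4591 FPKM and stood at 50.8, 45.4 and 64.8 FPKM in P56-NSC. Crct1 was listed at 0 in the 3 P56-NSC libraries and at 109, 147 and 109.5 FPKM in AST. Against the same floor it was 534-fold lower, with the same limit on a listed 0. Other genes among the 15 largest falls were Tnc, Acta2, Igfbp3, Fn1, Ccn2, Fmod, Spp1, Tnfrsf12a and S100a11.

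The P56-NSC label was checked against 22 markers of neural stem and progenitor cells, of which 6 rose and 6 fell, 27.3% in each direction, with a median log2 change of -0.21. These shares lie near those of all genes tested, 22.0% for rises and 18.7% for falls. Nes, the intermediate filament nestin of neural progenitors, was at 209, 183 and 195 FPKM in AST and 3.91, 3.48 and 3.898 FPKM in P56-NSC (log2 change -5.37, SE 0.09, limma adjusted p = 2.19e-13). All 3 P56-NSC libraries lay below 4 FPKM and all 3 AST libraries above 180. Vim, the filament vimentin, was at 1926, 2724 and 1908 FPKM in AST and 41.7, 35.98 and 46.6 FPKM in P56-NSC. Fabp7, a lipid binding protein of radial glia, was at 355, 496 and 365 FPKM in AST and 63.6, 62.8 and 61.9 FPKM in P56-NSC. Id3, a BMP target, and Hes1, a Notch target, fell as well (-3.68 and -2.70). Cdk6, a kinase of the G1 phase, fell from 4.43, 3.899 and 4.08 FPKM to 0.581, 0.659 and 0.577 FPKM.

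Another set of the same markers was higher in P56-NSC. Hes5, a Notch effector of quiescent stem cells and astrocytes, was at 0.306, 0.687 and 0.395 FPKM in AST and 19.7, 24.3 and 15.5 FPKM in P56-NSC (log2 change 3.82, SE 0.20, limma adjusted p = 2.42e-09). Thrsp, a regulator of fat synthesis that also marks adult stem cells, was at 1.39, 2.55 and 1.53 FPKM in AST and 74.9, 63.3 and 85.6 FPKM in P56-NSC. Hopx was at 2.75, 3.19 and 1.598 FPKM in AST and 64.9, 64.4 and 73.1 FPKM in P56-NSC. Slc1a3, the glutamate transporter GLAST of stem cells and astrocytes, was at 24.9, 19.6 and 25.3 FPKM in AST and 352, 374 and 349 FPKM in P56-NSC. Sox1 and Msi1 rose less, by 1.60 and 1.07. The transcription factors used most often to define neural progenitors differed little: Sox2 was at 126, 158 and 122 FPKM in AST and 109, 119 and 94.03 FPKM in P56-NSC, and its call (log2 change -0.33, SE 0.14, limma adjusted p = 0.0445) was lost without AST library 2 (adjusted p = 0.163) and without AST library 1, P56-NSC library 1 or P56-NSC library 3 (0.0505, 0.081 and 0.177). Pax6, a factor of neural progenitors and astrocytes, was at 3.55, 3.48 and 3.73 FPKM in AST and 2.596, 2.904 and 2.77 FPKM in P56-NSC, a call that was lost without P56-NSC library 1 (adjusted p = 0.0564). Sox11, a factor of newborn neurons, was at 6.36, 6.699 and 6.14 FPKM in AST and 5.93, 6.92 and 4.67 FPKM in P56-NSC and was not called (limma adjusted p = 0.427).

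Markers of other cell types differed between the groups in both directions, and their part in the results for the stem cell markers was not tested. The stem and progenitor list took 1.23% to 1.56% of reads in AST and 0.354% to 0.371% in P56-NSC. Vim, given above, made up most of its summed level in AST (3052, 4083 and 3024 FPKM). The share therefore does not stand for all 22 markers, of which 6 rose and 6 fell. The myelin list took 0.0217% to 0.0234% in AST and 6.43% to 7.56% in P56-NSC. The astrocyte list took 0.239% to 0.273% in AST and 3.24% to 3.52% in P56-NSC. The neurofilament and axon list took 0.124% to 0.137% in AST and 1.15% to 1.43% in P56-NSC, and the choroid plexus list 0.00220% to 0.00260% in AST and 0.245% to 0.468% in P56-NSC. The endothelial list went the other way, with 0.0950% to 0.0982% in AST and 0.0393% to 0.0470% in P56-NSC. So did the fibroblast and mural list, with 0.510% to 0.551% in AST and 0.0166% to 0.0231% in P56-NSC. Acta2, also a contractile gene, was at 1742, 2113 and 1689.8 FPKM in AST. It made up most of the summed level of the fibroblast and mural list there (1985, 2304 and 1909 FPKM). Bsg made up most of that of the endothelial list (481, 528 and 482 FPKM). These shares therefore do not stand for all markers of either list. Of 11 tested fibroblast and mural markers, 2 rose and 6 fell. Tested list genes listed at 0 in every AST library included Mobp, Opalin and Sst. Cldn5 was listed at 0 there too, but it was the only 1 of 9 tested endothelial markers that rose. The libraries labelled P56-NSC thus carried mature glial and neuronal markers at high levels and markers of dividing progenitors at low ones. In bulk samples of this kind, fewer cells of a type and less RNA per cell cannot be told apart.

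**Figure D2:**
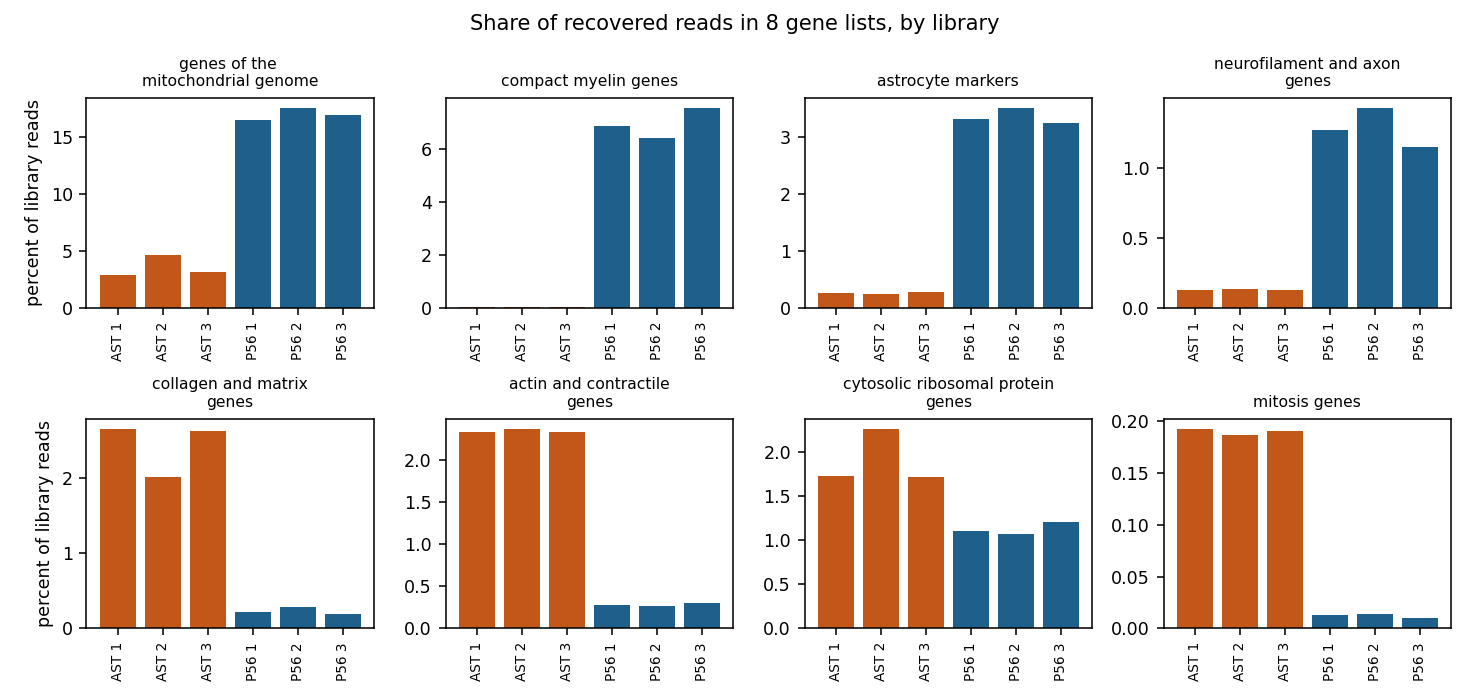
Percent of each library's recovered reads that fell in 8 gene lists, 1 bar a library, AST in orange and P56-NSC in blue, with each axis starting at 0. Mitochondrial, myelin, astrocyte and axon genes took more of the P56-NSC libraries. Matrix, contractile, ribosomal protein and mitosis genes took more of the AST libraries.

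Of 22 astrocyte markers, 19 rose and none fell, with a median log2 change of 3.36; the other 3, Aqp4, Aldh1l1 and Sox9, were called below 2-fold. Gfap, the filament of astrocytes, was at 31.1, 27.2 and 31.3 FPKM in AST and 207, 198 and 228 FPKM in P56-NSC (log2 change 2.78, SE 0.25, limma adjusted p = 5.72e-07). Aqp4, the water channel of astrocyte endfeet, was at 32.7, 27.5 and 32.3 FPKM in AST and 60.2, 64.2 and 60.97 FPKM in P56-NSC, and its call was lost with the same FPKM sum in every library (adjusted p = 0.179). Sox9 and Aldh1l1, which mark astrocytes from early stages, changed by 0.98 and 0.75. The 4 largest rises were in Slc1a2, S100b, Ntsr2 and Ndrg2. Slc1a2, the main glutamate transporter of the forebrain, was at 1.82, 1.57 and 1.76 FPKM in AST and 501, 552 and 505 FPKM in P56-NSC (log2 change 7.58, SE 0.25, limma adjusted p = 5e-11). Glul, which turns glutamate into glutamine, was at 39.05, 42.8 and 42.5 FPKM in AST and 2103, 2263 and 2069.9 FPKM in P56-NSC. Ntsr2, a neurotensin receptor, was at 0.0956, 0.07903 and 0.0863 FPKM in AST and 150.4, 174 and 141 FPKM in P56-NSC. Gjb6, the gap junction protein connexin 30, was at 0, 0 and 0.0201 FPKM in AST and 113, 124 and 105 FPKM in P56-NSC. Its partner Gja1, connexin 43, was at 25.5, 22.6 and 26.4 FPKM in AST and 83.2, 89.2 and 81.5 FPKM in P56-NSC. So 1 of these 2 connexins was at most 0.0201 FPKM in AST and the other was well above that in both groups.

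All 20 genes of compact myelin rose, with a median log2 change of 6.00 (5.98 with the 2 genes that were listed at 0 in AST set to a floor of 3 reads). Myelin is the stacked membrane with which oligodendrocytes wrap axons. Mag, which faces the axon, was at 0.0293, 0.0484 and 0.0661 FPKM in AST and 277, 257 and 279 FPKM in P56-NSC (log2 change 8.02, SE 0.08, limma adjusted p = 5.74e-15). Mog, on the outer surface, was at 0.035001, 0 and 0 FPKM in AST and 274, 238 and 301 FPKM in P56-NSC. Opalin, a late marker of the sheath, was listed at 0 in all 3 AST libraries and at 55.3, 46.97 and 57.04 FPKM in P56-NSC. The smallest change was in Nkx6-2, a transcription factor shared with progenitors, at 12.9, 18.8 and 12.1 FPKM in AST and 63.9, 63.4 and 59.7 FPKM in P56-NSC. Cnp and Plekhb1 were the other members above 15 FPKM in every AST library, at 16.9, 18.6 and 17.1 and 21.8, 23.7 and 22.5 FPKM.

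Of 15 genes of oligodendrocyte precursors, 12 rose and 1 fell (median 3.25). Olig1 and Olig2, the factors that set the lineage, were above 1 FPKM in every AST library: Olig1 was at 76.97, 96.7 and 79.9 FPKM in AST and 343, 335 and 352 FPKM in P56-NSC. Olig2 was at 25.9, 27.7 and 26.4 FPKM in AST and 79.4, 75.2 and 81.8 FPKM in P56-NSC. Sox10, which follows them in the lineage, was at 0.0782, 0.388 and 0.371 FPKM in AST and 72.5, 78.8 and 65.96 FPKM in P56-NSC (log2 change 5.85, SE 0.17, limma adjusted p = 1.67e-11). Pdgfra, the growth factor receptor of precursors, was at 0.363, 0.305 and 0.451 FPKM in AST and 19.1, 20.98 and 17.1 FPKM in P56-NSC. Gpr17 and Bcas1, which mark cells between precursor and oligodendrocyte, were at 34.9, 35.4 and 31.7 and 529.8, 554 and 581 FPKM in P56-NSC and below 0.1 FPKM in every AST library. Cspg4, the NG2 proteoglycan, changed by 0.80, and Vcan was not called (log2 change -0.17, SE 0.12, limma adjusted p = 0.241), although without AST library 2 its change was -0.33 and was called. The fall was in Bmp4, at 14.3, 15.6 and 14.3 FPKM in AST and 2.72, 1.75 and 2.94 FPKM in P56-NSC.

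Genes of synapses and of mature neuron subtypes rose in P56-NSC. Of the tested genes, 15 of 17 in synaptic vesicle release rose, 15 of 17 in the postsynaptic list, 15 of 16 in the inhibitory list, 8 of 9 in the excitatory and subtype list and 16 of 20 in the neurofilament and axon list. The background for a rise was 22.0% of all genes tested. Genes of these lists near 0 in AST could enter only through P56-NSC and had to be higher there. The counts are therefore no test against that background. Of the 20 genes on the excitatory and subtype list, only 9 were tested. Snap25, a part of the vesicle fusion machinery, was at 0.0966, 0.0581 and 0.119 FPKM in AST and 34.4, 36.3 and 30.4 FPKM in P56-NSC (log2 change 4.99, SE 0.11, limma adjusted p = 1.53e-12). The 3 P56-NSC libraries lay close together and far above AST. Cplx1, which clamps fusion until calcium enters, was at 0.245, 0.1802 and 0.394 FPKM in AST and 94.4, 116 and 79.8 FPKM in P56-NSC. Rab3a and Rims1 were below 0.1 FPKM in all 6 libraries and Sv2b reached 1 FPKM in 2, so these 3 genes were not tested.

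Camk2a, the calcium-dependent kinase of excitatory synapses, was at 0.823, 0.793 and 0.801 FPKM in AST and 382, 419 and 372 FPKM in P56-NSC (log2 change 7.76, SE 0.18, limma adjusted p = 2.3e-12). Cnih2, an auxiliary subunit of AMPA receptors, was at 1.74, 2.38 and 1.57 FPKM in AST and 323, 332 and 330.4 FPKM in P56-NSC. Nrgn, a calmodulin binding protein of spines, was at 0.903, 0.916 and 0.445 FPKM in AST and 127, 146 and 115 FPKM in P56-NSC. The AMPA receptor subunits themselves were split. Gria1 was at 1.19, 1.11 and 1.47 FPKM in AST and 43.3, 61.3 and 31.8 FPKM in P56-NSC. Gria2 was at 1.03, 1.12 and 1.004 FPKM in AST and 10.9, 9.66 and 10.6 FPKM in P56-NSC, while Gria3 was at 17.7, 13.1 and 16.8 FPKM in AST and 2.29, 2.31 and 1.96 FPKM in P56-NSC and fell (log2 change -2.39, SE 0.14, limma adjusted p = 8.15e-09). Homer1 was not called (0.20, limma adjusted p = 0.112).

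Gad1 and Gad2, the enzymes that make GABA, were at 16.4, 16.2 and 15.9 FPKM and 14.5, 15.4 and 11.5 FPKM in P56-NSC and below 0.3 FPKM in each AST library. Slc32a1, the vesicle transporter of GABA, was at 0.0213, 0 and 0 FPKM in AST and 20.02, 19.8 and 19.1 FPKM in P56-NSC. The interneuron peptides Sst and Cck and the calcium binding proteins Pvalb and Calb2 rose as well. Sst was listed at 0 in AST and at 29.4, 36.6 and 32.4 FPKM in P56-NSC. Dlx2, a transcription factor of the ganglionic eminences and the adult subventricular zone, was at 7.69, 7.36 and 8.05 FPKM in AST and 8.88, 13.9 and 6.401 FPKM in P56-NSC and was not called (log2 change 0.24, SE 0.22, limma adjusted p = 0.331), whereas Dlx1 was at 1.14, 1.06 and 0.968 FPKM in AST and 17.2, 17.5 and 15.2 FPKM in P56-NSC. Slc17a7, the vesicle transporter of glutamate in cortical neurons, was at 0.0111, 0.0457 and 0.00999 FPKM in AST and 10.4, 11.2 and 9.29 FPKM in P56-NSC. Ppp1r1b, the DARPP-32 protein of striatal neurons, was at 0.143, 0.118 and 0.0184 FPKM in AST and 42.8, 53.1 and 38.3 FPKM in P56-NSC. Both were well above AST in each P56-NSC library. Penk, an opioid peptide of striatal neurons, was at 1.35, 2.32 and 1.42 FPKM in AST and 9.91, 16.4 and 2.71 FPKM in P56-NSC, with P56-NSC library 3 near the AST values. Of 18 genes of cerebellar and hindbrain neurons only 7 were tested, and 6 of these rose. Zic1 was among them, at 5.48, 4.23 and 5.202 FPKM in AST and 42.9, 42.4 and 41.7 FPKM in P56-NSC. Pcp2 and Gabra6, which mark Purkinje and granule cells of the cerebellum, stayed below 0.1 FPKM in all 6 libraries. Of 11 tested neuropeptide and hormone genes 7 rose and 2 fell, and with the same FPKM sum in every library 4 rose. The whole list took more reads in AST, 0.0323% to 0.0338%, than in P56-NSC, 0.0126% to 0.0165%. The genes that fell were Vgf and Scg2. Vgf, a secreted peptide precursor, was at 70.7, 84.3 and 65.3 FPKM in AST and 12.1, 13.5 and 9.45 FPKM in P56-NSC. Scg2, a granin, was at 40.9, 24.7 and 40.9 FPKM in AST and 8.02, 7.85 and 7.15 FPKM in P56-NSC.

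The neurofilament and axon list did not move as 1 block. Mapt, the protein tau, was at 0.634, 0.465 and 0.686 FPKM in AST and 63.3, 66.7 and 62.2 FPKM in P56-NSC (log2 change 5.35, SE 0.14, limma adjusted p = 6.47e-12). Nefl, the light neurofilament chain, was at 0.547, 0.671 and 0.653 FPKM in AST and 35.6, 40.6 and 28.3 FPKM in P56-NSC. Nefm, the medium chain, was at 3.19, 2.695 and 2.77 FPKM in AST and 3.46, 3.52 and 2.59 FPKM in P56-NSC and was not called. Stmn2 and Uchl1, both often used as neuron markers, fell: Stmn2 was at 48.4, 66.7 and 46.3 FPKM in AST and 18.2, 19.3 and 17.1 FPKM in P56-NSC. Uchl1 was at 171, 262 and 168 FPKM in AST and 70.8, 94.9 and 73.7 FPKM in P56-NSC. Among 13 tested genes of immature neurons, 7 rose and 3 fell, and with quantile normalization 1 fell. The whole list took more reads in AST, 0.1698% to 0.174%, than in P56-NSC, 0.126% to 0.136%. Dcx, a microtubule protein of migrating neuroblasts, was at 0.108, 0.0819 and 0.0596 FPKM in AST and 3.21, 3.78 and 3.02 FPKM in P56-NSC. Dpysl3, Cd24a and Tubb2b fell by 1.98, 1.23 and 1.05 on the log2 scale. Eomes and Neurog2, which mark committed neuron precursors, reached 1 FPKM in no library. Of 16 tested voltage-gated channel genes, 11 rose and none fell 2-fold, led by Hcn2 (1.51, 1.79 and 1.4999 FPKM in AST and 65.8, 70.1 and 63.01 FPKM in P56-NSC) and Kcnab2. With quantile normalization, 7 of them rose.

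**Figure D3:**
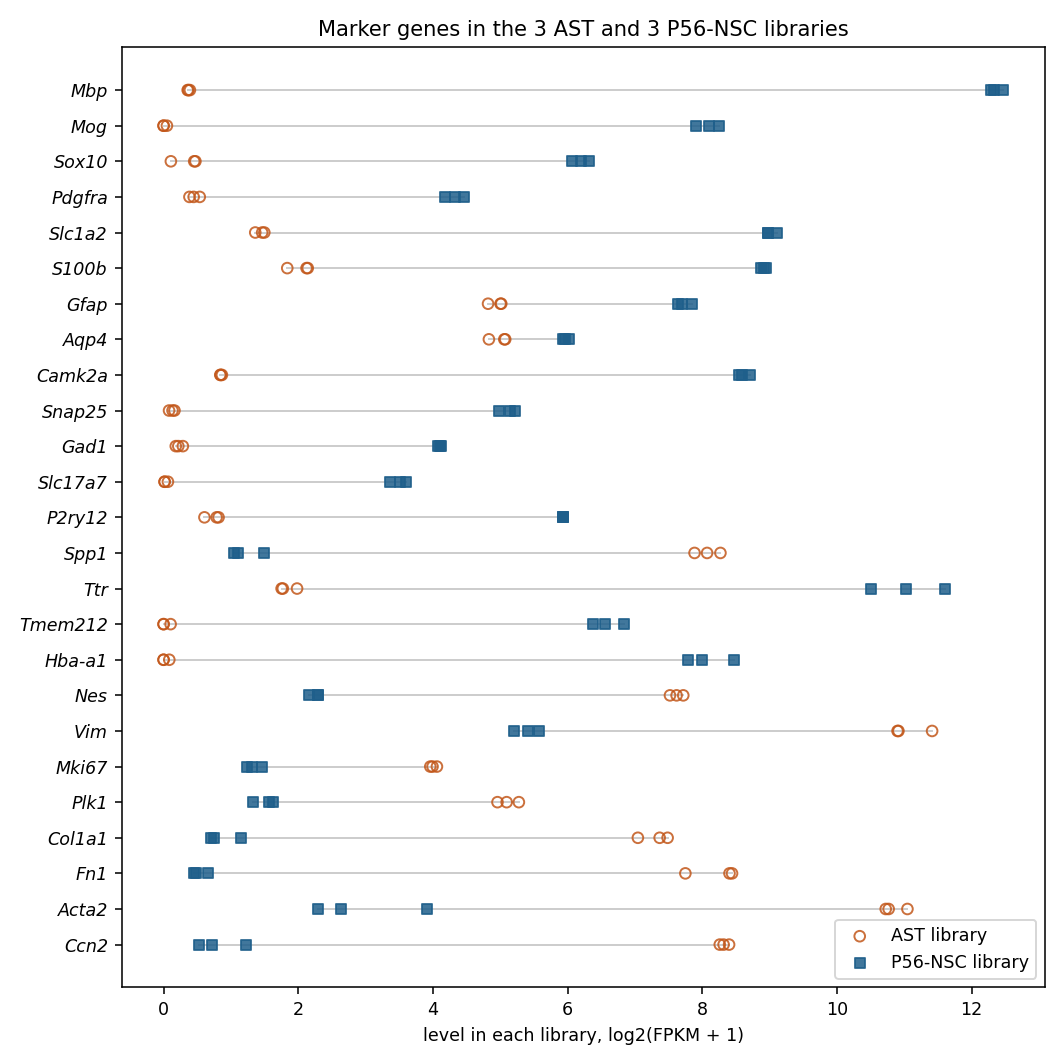
Level in each library, as log2(FPKM + 1), of 25 marker genes, with AST libraries as open orange circles, P56-NSC libraries as filled blue squares and a grey line spanning all 6. For every gene shown the groups do not overlap. The smallest gap is in Aqp4, and P56-NSC library 3 is the highest of its group in Acta2, Col1a1, Ccn2 and Ttr.

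The microglial genes did not move together. Microglia are the resident macrophages of the brain, and a set of genes that they carry at rest is commonly reduced in culture. Of 10 such homeostatic genes 9 rose and the other, Sall1, was called below 2-fold, a call lost without AST library 2 (adjusted p = 0.0562) or P56-NSC library 2 (0.0553) (median 3.57). P2ry12, an ADP receptor, was at 0.726, 0.523 and 0.761 FPKM in AST and 60.3, 59.98 and 60.3 FPKM in P56-NSC (log2 change 5.20, SE 0.17, limma adjusted p = 3.79e-11). Tmem119 was at 3.07, 3.75 and 3.86 FPKM in AST and 54.2, 49.5 and 52.9 FPKM in P56-NSC. Siglech, a lectin, was at 0.0176, 0 and 0 FPKM in AST and 18.6, 19.2 and 17.6 FPKM in P56-NSC. Of the 17 tested genes of the wider microglia and macrophage list, 10 rose and 3 fell, and with the same FPKM sum in every library 6 rose. The genes that fell were Spp1, Lyz2 and Gpnmb, which mark phagocytic or activated macrophages. Spp1, osteopontin, was at 235, 308 and 268 FPKM in AST and 1.15, 1.06 and 1.81 FPKM in P56-NSC (log2 change -6.86, SE 0.18, limma adjusted p = 8.58e-12). Lyz2, lysozyme, was at 301, 316 and 345 FPKM in AST and 20.1, 15.2 and 34.5 FPKM in P56-NSC. Tyrobp, an adaptor of microglial receptors, was at 40.7, 61.96 and 42.1 FPKM in AST and 52.3, 50.6 and 49.8 FPKM in P56-NSC and was not called, though with the same FPKM sum in every library it was called lower (-0.39). Csf1r, the growth factor receptor of microglia, was at 7.15, 7.21 and 8.47 FPKM in AST and 77.1, 77.3 and 74.2 FPKM in P56-NSC. The call of Cd68 (-0.72) was lost without AST library 2 (adjusted p = 0.0724) and without P56-NSC library 1 (0.0506). The wider list took 0.144% to 0.164% of reads in AST and 0.1695% to 0.186% in P56-NSC, so reads in microglial genes were present in both groups. Csf1, the ligand of that receptor, was at 277, 275 and 273 FPKM in AST and 9.93, 9.89 and 9.82 FPKM in P56-NSC. Il34, its other ligand, was at 4.02, 4.204 and 3.68 FPKM in AST and 2.38, 2.32 and 1.55 FPKM in P56-NSC.

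Genes of ventricle-lining cells rose. Of 17 tested genes of ependyma and motile cilia, 16 rose (median 2.69), and of 11 tested choroid plexus genes 10 rose (median 2.32). Tmem212, an ependymal gene, was at 0, 0 and 0.0752 FPKM in AST and 93.4, 82.3 and 114 FPKM in P56-NSC (log2 change 6.56, SE 0.20, limma adjusted p = 2.23e-11). Foxj1, the master factor of motile cilia, was already at 41.997, 47.6 and 40.4 FPKM in AST against 63.6, 56.2 and 66.01 FPKM, a change of 0.51 whose call was lost with the same FPKM sum in every library. Ttr, transthyretin, the main secreted product of the choroid plexus, was at 2.41, 2.37 and 2.95 FPKM in AST and 2077, 1452 and 3119.7 FPKM in P56-NSC, highest in P56-NSC library 3. Kl, a choroid plexus co-receptor, was at 0.00639, 0.00529 and 0.0346 FPKM in AST and 7.81, 5.39 and 9.698 FPKM in P56-NSC and followed the same order of libraries.

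All 7 tested red blood cell genes rose, and Hba-a1 was at 0, 0.0607 and 0 FPKM in AST and 253, 220.1 and 353 FPKM in P56-NSC. The globin genes Hba-a2, Hbb-bs and Hbb-bt were listed at 0 in the 3 AST libraries, and the copies of each globin share reads, so the split between them is uncertain. The list's median was 4.78, or 4.48 with those 3 genes at a floor of 3 reads. Bpgm, an enzyme that makes a regulator of oxygen release, was already present in AST and had the smallest change, at 27.1, 24.2 and 24.9 FPKM in AST and 52.5, 50.6 and 53.4 FPKM in P56-NSC. The erythrocyte membrane genes Slc4a1 and Hemgn stayed below 0.1 FPKM in every library. Of 9 tested endothelial markers 1, Cldn5, rose and 4, Cdh5, Kdr, Esam and Bsg, fell (median -0.70). The list took 0.0950% to 0.0982% of reads in AST and 0.0393% to 0.0470% in P56-NSC. Bsg, basigin, which many cells carry, was its most abundant member, at 431, 481 and 432 FPKM in AST and 183, 171 and 214 FPKM in P56-NSC. Pecam1, an adhesion protein of vessels, was at 0.0479, 0.0713 and 0.0432 FPKM in AST and 0.398, 0.5702 and 0.536 FPKM in P56-NSC and was not tested. Cldn5 was listed at 0 in AST and at 1.71, 2.11 and 2.14 FPKM in P56-NSC.

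P56-NSC library 3 was the highest of its group in some genes of fibroblasts, smooth muscle and antigen-presenting cells, and library 2 was the lowest in several of them. Over all genes library 3 was not the outlier. Libraries 1 and 3 were the closest pair (chi-square per degree of freedom 6.77), and libraries 2 and 3 the farthest (16.2). Dcn, a matrix protein of meningeal fibroblasts, was at 1.43, 0.416 and 3.18 FPKM in P56-NSC and 0.286, 0.237 and 0.221 FPKM in AST. Des, desmin, was at 0.0767, 0.0996 and 4.11 FPKM, and Dpt, dermatopontin, at 0.134, 0.108 and 3.31 FPKM. Cd74, the chain that accompanies MHC class II, was at 6.31, 3.45 and 18.5 FPKM, and H2-Aa, a class II chain, at 0.956, 0.197 and 4.33 FPKM. Actg2, a smooth muscle actin, was at 0.111, 0.04001 and 10.4 FPKM against 7.93, 9.69 and 6.99 FPKM in AST, and its call was lost without AST library 2, P56-NSC library 1 or P56-NSC library 2 (adjusted p = 0.0524, 0.0865 and 0.0912). Of 11 tested fibroblast and mural cell markers 2 rose and 6 fell, and without P56-NSC library 3 only 1 rose.

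Genes of cell division were lower in P56-NSC. All 26 tested mitosis genes fell (median -2.61), against a background of 18.7% for falls. Genes of this list near 0 in P56-NSC could enter only through AST and had to be lower in P56-NSC. The count is therefore no test against that background. Mki67, the proliferation marker Ki-67, was at 14.9, 15.7 and 14.6 FPKM in AST and 1.48, 1.75 and 1.36 FPKM in P56-NSC (log2 change -2.67, SE 0.12, limma adjusted p = 6.05e-10). Cdk1, the kinase that starts mitosis, was at 26.4, 34.4 and 25.05 FPKM in AST and 0.701, 1.14 and 0.861 FPKM in P56-NSC. Cdc20, which starts the exit from it, was at 49.6, 56.3 and 48.97 FPKM in AST and 3.61, 3.77 and 2.27 FPKM in P56-NSC. The list took 0.186% to 0.193% of reads in AST and 0.0105% to 0.0141% in P56-NSC. Of 28 DNA replication genes 24 fell and none rose (median -1.57). Rrm2, which supplies deoxynucleotides, was at 128, 125 and 125 FPKM in AST and 4.84, 5.13 and 3.15 FPKM in P56-NSC. The smallest changes were in Pola1, Ung, Fen1 and Pole, each below 2-fold.

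Mitosis genes share short promoter elements, and 2 promoters are shown because both genes fell and both hold the CHR element with CCAAT boxes. The sequences are from RefSeq for GRCm38.p6, 250 bases up to the start of transcription, read 5′ to 3′ on the gene's strand. Capitals mark TTTGAA, the CHR element, and CCAAT, each on either strand, and neighbouring CCAAT matches can overlap. Cdc20 lies on the minus strand, with its window at chr4:118437344-118437593, and Ube2c, a ubiquitin conjugating enzyme of mitotic exit, on the plus strand at chr2:164769679-164769928.
Cdc20: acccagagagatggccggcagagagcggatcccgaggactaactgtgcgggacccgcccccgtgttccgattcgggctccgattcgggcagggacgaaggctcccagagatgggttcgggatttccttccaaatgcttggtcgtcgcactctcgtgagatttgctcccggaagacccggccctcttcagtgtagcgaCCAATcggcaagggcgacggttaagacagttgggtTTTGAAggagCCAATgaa
Ube2c: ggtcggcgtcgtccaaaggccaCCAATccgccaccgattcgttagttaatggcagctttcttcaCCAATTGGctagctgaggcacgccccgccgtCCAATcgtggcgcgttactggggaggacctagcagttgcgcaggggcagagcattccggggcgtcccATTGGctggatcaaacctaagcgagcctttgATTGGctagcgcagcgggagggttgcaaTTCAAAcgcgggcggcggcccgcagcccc
In windows of 250 bases before and 50 after the start, TTTGAA was found in 18 of the 23 mitosis genes with a window (78.3%), against 18.1% of 27025 windows and 3 of 22 replication genes (13.6%). CCAAT was found in 19 of 23 mitosis windows (82.6%), against 37.9% of all windows. These are matches of letters and say nothing on their own about binding. Ube2c was at 37.2, 57.1 and 38.7 FPKM in AST and 2.59, 3.02 and 2.01 FPKM in P56-NSC, and Cdc20 has its values above.

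Regulators of the G1 phase fell together with inhibitors of it. Of 16 genes of G1 cyclins, their kinases and inhibitors, 13 fell and 1 rose. Ccnd1, cyclin D1, was at 488, 321 and 474 FPKM in AST and 9.603, 12.6 and 9.102 FPKM in P56-NSC (log2 change -5.22, SE 0.17, limma adjusted p = 4.49e-11). Ccnd2 was at 201, 172 and 199 FPKM in AST and 11.7, 15.6 and 8.93 FPKM in P56-NSC. Cdkn2a, which encodes p16 and p19ARF, was at 39.2, 65.5 and 41.9 FPKM in AST and 0.197, 0.0532 and 0.155 FPKM in P56-NSC. Its neighbour Cdkn2b was at 28.7, 28.98 and 27.3 FPKM in AST and 0.497, 0.583 and 0.8299 FPKM in P56-NSC. The gene that rose was Cdkn1c, the inhibitor p57, at 0.848, 0.895 and 0.871 FPKM in AST and 7.43, 5.62 and 9.35 FPKM in P56-NSC. Cdkn1b, the inhibitor p27, was at 21.98, 20.7 and 19.7 FPKM in AST and 23.2, 24.3 and 22.5 FPKM in P56-NSC and was not called. Of 18 targets of p53, 17 fell and 1 rose (median -2.84). Cdkn1a, the inhibitor p21, was at 238, 217 and 232 FPKM in AST and 10.7, 7.17 and 14.1 FPKM in P56-NSC. Gdf15, a stress-induced hormone, was at 86.6, 116 and 78.3 FPKM in AST and 0.187, 0.101 and 0.361 FPKM in P56-NSC (log2 change -6.27, SE 0.28, limma adjusted p = 6.3e-10). Sesn1 was the target that rose, at 7.25, 5.47 and 7.11 FPKM in AST and 21.5, 19.5 and 22.8 FPKM in P56-NSC. Its relative Sesn2 was at 28.5, 27.7 and 28.3 FPKM in AST and 3.65, 4.14 and 3.14 FPKM in P56-NSC.

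Matrix genes fell. Of 30 genes of collagens and other fibrillar matrix, 28 fell and none rose, with a median log2 change of -3.82, and Postn and P4ha2 were called below 2-fold. Fn1, fibronectin, was at 338, 214 and 347 FPKM in AST and 0.375, 0.3999 and 0.587 FPKM in P56-NSC (log2 change -7.66, SE 0.18, limma adjusted p = 2.96e-12). Tnc, tenascin C, was at 357, 319 and 366 FPKM in AST and 0.259, 0.305 and 0.383 FPKM in P56-NSC. Col1a1, the main chain of collagen I, was at 178, 131 and 164 FPKM in AST and 0.632, 0.683 and 1.22 FPKM in P56-NSC. Lox, the enzyme that crosslinks collagens, was at 103, 87.1 and 95.5 FPKM in AST and 0.0241, 0.01304 and 0.0889 FPKM in P56-NSC. Sparc, a matrix protein that astrocytes also make in tissue, was abundant in both groups, at 1692, 1486 and 1612 FPKM in AST and 684, 941 and 575 FPKM in P56-NSC. The list took 2.01% to 2.66% of reads in AST, lowest in library 2, and 0.194% to 0.287% in P56-NSC.

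The matrix of brain tissue moved the other way. Of 12 tested genes of lecticans and perineuronal nets, 7 rose and 2 fell. Bcan, the lectican brevican, was at 8.497, 9.91 and 8.36 FPKM in AST and 219, 236 and 203 FPKM in P56-NSC (log2 change 4.47, SE 0.13, limma adjusted p = 1.8e-11). Hapln2, a link protein of nodes of Ranvier, was at 0.0252, 0.0416 and 0.0227 FPKM in AST and 81.2, 68.4 and 89.5 FPKM in P56-NSC. Sparcl1, a relative of Sparc made by mature astrocytes, was at 22.2, 23.5 and 24.5 FPKM in AST and 1862, 2156 and 1647 FPKM in P56-NSC. The genes that fell were Cd44 and Has2. Cd44, the hyaluronan receptor, was at 104, 102 and 107 FPKM in AST and 0.425, 0.506 and 0.672 FPKM in P56-NSC. Has2, a hyaluronan synthase, was at 1.96, 1.97 and 1.97 FPKM in AST and 0.0952, 0.0882 and 0.129 FPKM in P56-NSC. Among 16 tested integrins and cadherins 12 fell and 3 rose. Itga3, a laminin receptor chain, was at 126, 102 and 121 FPKM in AST and 2.02, 1.997 and 2.28 FPKM in P56-NSC. Itgb8, which activates TGF-beta, was at 5.88, 4.21 and 6.38 FPKM in AST and 21.2, 21.3 and 18.4 FPKM in P56-NSC. Cdh2, N-cadherin, was at 114, 94.8 and 116 FPKM in AST and 17.1, 17.4 and 16.3 FPKM in P56-NSC, and Cdh20 and Cdh10 rose by 2.17 and 1.80.

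Of 25 genes of actin and contraction 23 fell and 1 rose (median -3.62). Acta2, smooth muscle actin, was at 1742, 2113 and 1689.8 FPKM in AST and 5.22, 3.92 and 14.1 FPKM in P56-NSC (log2 change -7.90, SE 0.39, limma adjusted p = 1.64e-09). Cnn2, a calponin, was at 342, 369 and 324 FPKM in AST and 3.21, 3.17 and 3.36 FPKM in P56-NSC. Actn1, which bundles actin, was at 186, 173 and 181 FPKM in AST and 3.59, 3.91 and 4.14 FPKM in P56-NSC. Cnn1 and Tpm2 were at 0.1895, 0.114 and 4.22 FPKM and 1.15, 1.39 and 5.32 FPKM in P56-NSC, where library 3 was again the highest. The gene that rose was Csrp1, a LIM protein, at 168, 84.1 and 150.1 FPKM in AST and 749, 728 and 785 FPKM in P56-NSC. Srf, the factor that drives many of these genes, was at 24.3, 18.3 and 24.6 FPKM in AST and 15.3, 14.9 and 14.1 FPKM in P56-NSC, a change below 2-fold. Vcl, vinculin, was at 24.9, 7.16 and 27.1 FPKM in AST and 2.74, 3.32 and 2.47 FPKM in P56-NSC, with AST library 2 far below the other 2.

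Of 17 tested targets of YAP and TEAD, which respond to cell spreading and stiffness, 16 fell (median -2.69). Ccn1 was at 935, 966 and 895 FPKM in AST and 18.7, 14.6 and 21.02 FPKM in P56-NSC (log2 change -5.62, SE 0.28, limma adjusted p = 1.88e-09). Its relative Ccn2 was at 336, 318 and 305 FPKM in AST and 0.644, 0.436 and 1.34 FPKM in P56-NSC. Tead4, one of the factors itself, was at 4.04, 3.69 and 3.44 FPKM in AST and 0.01601, 0 and 0 FPKM in P56-NSC. Tead1 was at 23.7, 18.8 and 23.8 FPKM in AST and 3.44, 3.93 and 3.32 FPKM in P56-NSC. The remaining gene, Arhgef17, was called below 2-fold (-0.43), and its call was lost without AST library 1 or 3 or P56-NSC library 1 or 3 (adjusted p = 0.0583, 0.0693, 0.0504 and 0.0695).

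A promoter of each of these lists is shown because it holds the element that its list is known for. In the Myl9 window (chr2:156775214-156775463, plus strand) capitals mark a CArG box, which SRF binds, and in the Ccn1 window (chr3:145649986-145650235, minus strand) they mark CATTCC, the M-CAT element of TEAD factors. Both are 250 bases from RefSeq for GRCm38.p6, as above.
Myl9: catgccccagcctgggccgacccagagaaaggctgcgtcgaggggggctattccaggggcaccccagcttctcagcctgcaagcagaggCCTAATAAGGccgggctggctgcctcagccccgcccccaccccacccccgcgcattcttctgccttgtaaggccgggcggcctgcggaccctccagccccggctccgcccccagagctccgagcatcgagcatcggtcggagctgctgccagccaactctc
Ccn1: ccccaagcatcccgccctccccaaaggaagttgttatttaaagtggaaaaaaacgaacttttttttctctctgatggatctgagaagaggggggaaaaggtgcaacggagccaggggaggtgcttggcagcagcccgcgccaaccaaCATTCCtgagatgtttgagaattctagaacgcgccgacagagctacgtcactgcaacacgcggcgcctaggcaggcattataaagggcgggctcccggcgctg
The CArG box was found in 5 of 21 contractile genes with a window (23.8%), namely Cnn2, Myl9, Vcl, Actg1 and Srf, against 1.6% of all windows. CATTCC on either strand was found in 8 of 12 YAP and TEAD targets (66.7%) and 9 of 21 contractile genes (42.9%), against 14.6% of all windows. Myl9, the light chain of smooth muscle myosin, was at 429.6, 601 and 423 FPKM in AST and 12.2, 11.04 and 25.2 FPKM in P56-NSC.

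Transcription factors of mesenchymal transition fell in part: of 10 tested, 8 fell and 1 rose. Twist1 was at 21.5, 30.2 and 22.95 FPKM in AST and 0, 0.0383 and 0.186 FPKM in P56-NSC (log2 change -4.58, SE 0.13, limma adjusted p = 1.61e-11), and Snai2, Snai1, Fosl1 and Runx2 were below 0.2 FPKM in every P56-NSC library. Zeb2, which oligodendrocytes and interneurons also use, rose from 4.08, 3.04 and 4.26 FPKM to 13.2, 12.5 and 13.3 FPKM, and Zeb1 changed by 0.80. Of 20 tested genes of IGF and other growth factors 14 fell and 2 rose. Igfbp3 was at 573, 645 and 543 FPKM in AST and 1.69, 1.73 and 2.06 FPKM in P56-NSC (log2 change -7.70, SE 0.22, limma adjusted p = 1.61e-11). Hbegf, an EGF receptor ligand, was at 260.2, 261 and 240.4 FPKM in AST and 5.96, 6.78 and 5.79 FPKM in P56-NSC. Both were far lower in every P56-NSC library. Bdnf, a growth factor of neurons, was at 7.95, 7.91 and 7.58 FPKM in AST and 0.278, 0.1704 and 0.146 FPKM in P56-NSC. The genes that rose were Fgf1 and Fgfr3. Fgf1, a growth factor, was at 8.16, 6.92 and 8.33 FPKM in AST and 54.1, 58.98 and 56.2 FPKM in P56-NSC. Fgfr3, a receptor of FGFs, was at 8.33, 7.29 and 8.55 FPKM in AST and 82.4, 92.03 and 71.9 FPKM in P56-NSC.

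Notch receptors pass a signal from neighbouring cells to Hes and Hey factors. Of 16 Notch genes 7 rose (43.8%) and 2 fell (12.5%), against 22.0% and 18.7% of all genes. The receptors Notch1, Notch2 and Notch3 changed by -0.53, -0.29 and -0.62, with AST library 2 lowest of the AST libraries in each. Only Notch3 was called, and without AST library 2 Notch1 and Notch2 were called too (-0.79 and -0.48). The call of Notch3 was lost without AST library 1 or 3 or P56-NSC library 1 or 3, with adjusted p between 0.081 and 0.193, and with the replicate number as a block (0.0708). Among the ligands, Jag1 was at 9.93, 8.37 and 9.33 FPKM in AST and 2.31, 2.53 and 1.42 FPKM in P56-NSC and fell, and Jag2 and Dll3 rose by 1.02 and 1.09. Among the targets, Hes1 was at 49.4, 70.2 and 48.3 FPKM in AST and 7.75, 7.37 and 7.84 FPKM in P56-NSC. Heyl and Nrarp ran opposite to it. Heyl was at 0.0117, 0.0193 and 0.0105 FPKM in AST and 5.94, 8.7001 and 4.5002 FPKM in P56-NSC. Nrarp was at 0.577, 0.592 and 0.375 FPKM in AST and 12.6, 14.3 and 10.1 FPKM in P56-NSC. So Hes1 fell while Hes5, Heyl and Nrarp rose. Of 17 tested BMP genes 8 fell (47.1%) and 3 rose (17.65%), against the same background. Id1, a direct BMP target, was at 288, 433 and 289 FPKM in AST and 14.5, 13.9 and 13.7 FPKM in P56-NSC (log2 change -4.46, SE 0.20, limma adjusted p = 6.26e-10). Smad6, a feedback inhibitor, was at 34.9, 34.7 and 34.1 FPKM in AST and 0.935, 1.17 and 0.606 FPKM in P56-NSC. Id4 rose, at 34.99, 41.8 and 35.3 FPKM in AST and 106, 97.3 and 110.3 FPKM in P56-NSC, and Id2 was not called (-0.04). Nog, noggin, which blocks BMP and supports neuron production beside the ventricle, was at 55.2, 71.6 and 51.5 FPKM in AST and 5.03, 4.08 and 4.12 FPKM in P56-NSC.

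Inflammatory genes were mostly lower in P56-NSC. Of 21 tested interferon-stimulated genes 18 fell and none rose (median -1.83). Isg15, a ubiquitin-like protein, was at 136, 229 and 133 FPKM in AST and 1.97, 1.42 and 6.39 FPKM in P56-NSC (log2 change -5.43, SE 0.38, limma adjusted p = 4.33e-08), with AST library 2 the highest. Bst2, tetherin, was at 399, 531 and 365 FPKM in AST and 10.6, 7.66 and 15.7 FPKM in P56-NSC. Ifit3 was at 75.4, 87.8 and 76.7 FPKM in AST and 14.4, 10.4 and 16.8 FPKM in P56-NSC. Irf7 was at 5.92, 8.41 and 6.72 FPKM in AST and 0.992, 0.264 and 2.09 FPKM in P56-NSC, with P56-NSC library 2 the lowest. Of 21 tested genes of reactive astrocytes 13 fell and 1, C3, rose. C3 was at 0.626, 0.527 and 0.586 FPKM in AST and 1.904, 1.95 and 2.74 FPKM in P56-NSC, and without AST library 2 or P56-NSC library 3 its rise was below 2-fold. Without AST library 3 or P56-NSC library 1, 2 genes of the list rose. Timp1, given above, is on this list too. Emp1, a membrane protein, was at 149, 127 and 147 FPKM in AST and 1.02, 1.13 and 2.72 FPKM in P56-NSC. Ptx3 was at 35.2, 36.98 and 33.5 FPKM in AST and 0.537, 0.256 and 0.204 FPKM in P56-NSC. Hspb1, a heat shock protein, was at 111, 146 and 96.8 FPKM in AST and 12.01, 10.03 and 12.1 FPKM in P56-NSC. Serpina3n was at 8.09, 8.65 and 9.6004 FPKM in AST and 16.8, 18.9 and 19.1 FPKM in P56-NSC, and Lcn2 did not reach 1 FPKM in any library. Of 19 tested chemokines and cytokines 8 fell and 2 rose. Il33, an alarmin of oligodendrocytes and astrocytes, was at 3.64, 2.94 and 3.71 FPKM in AST and 77.2, 75.8 and 76.4 FPKM in P56-NSC. Cxcl5 was at 0, 0.0529 and 0 FPKM in AST and 15.4, 11.7 and 15.5 FPKM in P56-NSC. Lif and Ccl2 fell by 3.57 and 2.09 on the log2 scale.

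B2m, the shared light chain of MHC class I, was at 848, 1184 and 859 FPKM in AST and 234, 223 and 313 FPKM in P56-NSC. Tap1, the peptide transporter, was at 9.64, 8.33 and 9.38 FPKM in AST and 1.399, 0.9898 and 1.55 FPKM in P56-NSC. The heavy chain H2-K1 was at 38.4, 36.8 and 37.6 FPKM in AST and 33.0, 28.8 and 42.98 FPKM in P56-NSC and was not called (log2 change -0.12, SE 0.15, limma adjusted p = 0.469). With the same FPKM sum in every library H2-K1 was called at -0.61, so its call rests on the scaling. Of 11 tested genes of antigen presentation 4 fell, and 1, Cd74, rose.

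Of 13 tubulins 10 fell and 2 rose. Tubb4a, the beta tubulin of mature neurons and oligodendrocytes, was at 6.93, 10.3 and 6.86 FPKM in AST and 512, 518 and 507 FPKM in P56-NSC (log2 change 5.85, SE 0.16, limma adjusted p = 1.25e-11). Tubb6, the beta tubulin of non-neural cells, was at 215, 257 and 207 FPKM in AST and 1.35, 1.48 and 1.84 FPKM in P56-NSC (log2 change -6.47, SE 0.13, limma adjusted p = 8.6e-13). Among 17 S100 and annexin genes 12 fell and 2 rose. S100b, an astrocyte protein, was at 2.57, 3.36 and 3.41 FPKM in AST and 466, 482 and 490.4 FPKM in P56-NSC. S100a1 was at 42.7, 65.2 and 37.6 FPKM in AST and 272, 277 and 309 FPKM in P56-NSC. S100a6 was at 657, 1077 and 635 FPKM in AST and 20.1, 17.8 and 25.4 FPKM in P56-NSC. S100a11 was at 1982, 3525 and 1993 FPKM in AST and 23.9, 16.7 and 32.1 FPKM in P56-NSC, and both were highest in AST library 2, where short genes were high. Anxa1 and Anxa3, annexins of the cell cortex, were at 1.25, 1.41 and 2.46 FPKM and 4.85, 4.72 and 5.12 FPKM in P56-NSC and above 100 FPKM in each AST library.

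**Figure D4:**
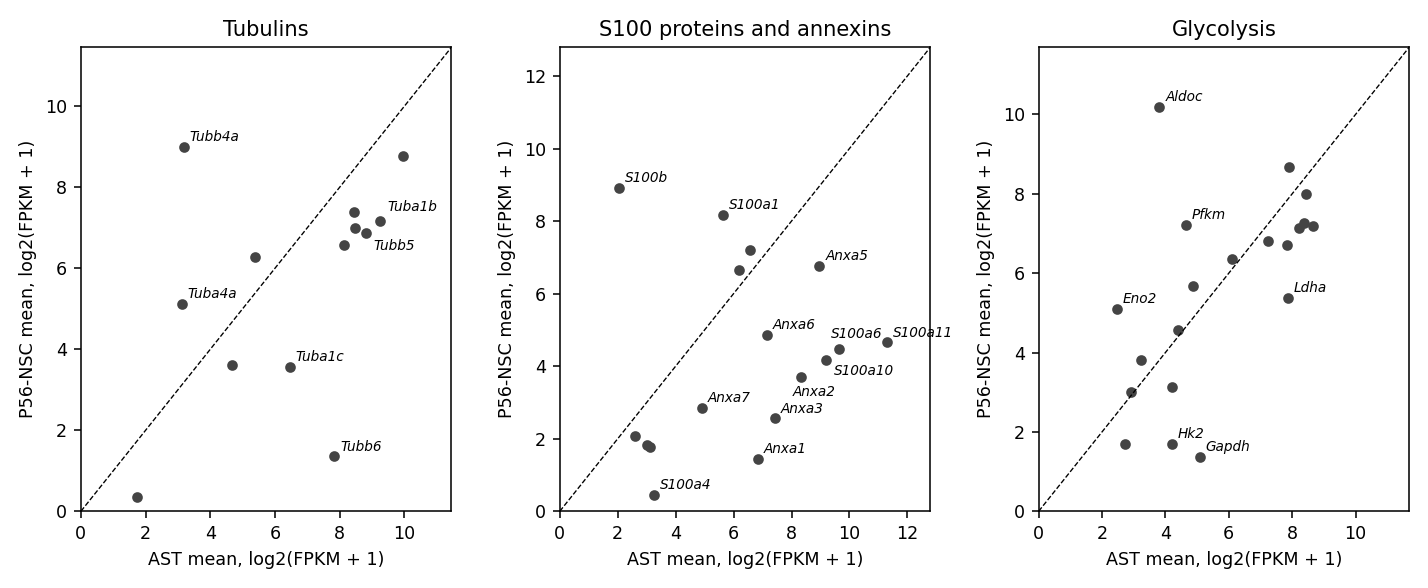
Mean level per gene in AST (x axis) against P56-NSC (y axis), both as log2(FPKM + 1) of the mean of 3 libraries, for tubulins, for S100 proteins and annexins, and for glycolysis genes. The dashed line marks equal levels and genes farthest from it are named. In each family a few genes lie above the line (Tubb4a, S100b, Aldoc) while relatives of theirs lie below it.

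Of 20 tested genes of glycolysis 9 fell and 3 rose, and with quantile normalization 5 fell. Aldoc, the aldolase of astrocytes, was at 12.8, 14.2 and 12.1 FPKM in AST and 1116, 1254 and 1131 FPKM in P56-NSC (log2 change 6.38, SE 0.16, limma adjusted p = 4.19e-12). Aldoa, the general aldolase, was at 309, 433 and 296 FPKM in AST and 246, 253 and 257 FPKM in P56-NSC and was not called. Eno2, the enolase of neurons, was at 4.68, 4.52 and 4.44 FPKM in AST and 32.4, 37.1 and 30.2 FPKM in P56-NSC. Eno1, the general enolase, was at 292, 312 and 277 FPKM in AST and 135, 146 and 138 FPKM in P56-NSC. Phosphofructokinase genes went both ways. Pfkm was at 24.9, 23.8 and 23.7 FPKM in AST and 144, 166 and 134 FPKM in P56-NSC. Pfkp was at 17.9, 16.2 and 18.1 FPKM in AST and 7.37, 7.76 and 8.24 FPKM in P56-NSC. Lactate dehydrogenase genes also differed. Ldha, which favours lactate production, was at 239.5, 221 and 240.1 FPKM in AST and 39.2, 40.9 and 42.1 FPKM in P56-NSC. Ldhb was at 224, 273 and 216 FPKM in AST and 393, 408 and 416 FPKM in P56-NSC. Of the 2 hexokinases on the list, Hk2 fell and Hk1 was not called. Hk2, the inducible hexokinase, was at 19.3, 14.4 and 18.5 FPKM in AST and 2.297, 2.07 and 2.38 FPKM in P56-NSC. Hk1 was at 21.9, 18.05 and 20.7 FPKM in AST and 21.7, 26.4 and 20.4 FPKM in P56-NSC. Gapdh was at 41.3, 2.73 and 54.5 FPKM in AST and 1.77, 1.49 and 1.47 FPKM in P56-NSC; it has many pseudogene copies that can share its reads, and its AST values differ more than 10-fold. It is 1 of the 9 falls counted, and its call was lost without AST library 1 or 3 or without any 1 of the P56-NSC libraries (limma adjusted p between 0.0545 and 0.108).

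Genes of the mitochondrial genome stood apart from the nuclear genes that work with them. All 15 rose, with a median log2 change of 2.69, compared with -0.14 for 29 tested nuclear genes of oxidative phosphorylation, of which 1 rose and 1 fell. Of the subunits of complex I, mt-Nd1 was at 3899, 6920.1 and 4222 FPKM in AST and 24800.0, 27473 and 26085 FPKM in P56-NSC (log2 change 2.43, SE 0.39, limma adjusted p = 0.000101), mt-Nd2 at 1991, 3716 and 2152 FPKM in AST and 15354, 16740.0 and 16826 FPKM in P56-NSC. mt-Nd4 was at 1519, 2835 and 1576 FPKM in AST and 9667, 11272 and 10693 FPKM in P56-NSC. In each of them AST library 2 was the highest AST library. mt-Nd3, mt-Nd4l and mt-Nd5 rose by 2.75, 3.19 and 1.64. mt-Nd6, the only messenger on the opposite strand, had the smallest rise, at 1575, 3139 and 1585 FPKM in AST and 4612, 4868 and 4848 FPKM in P56-NSC, and its call was lost without AST library 1 or without AST library 3. Of complex IV, mt-Co1 was the most abundant gene of the table at 8056, 12295 and 8768 FPKM in AST and 47105, 54740.0 and 46056 FPKM in P56-NSC, and mt-Co2 and mt-Co3 rose by 3.13 and 2.58. mt-Cytb, of complex III, was at 4365, 7626 and 4724 FPKM in AST and 26054, 29628 and 28205 FPKM in P56-NSC. Of the ATP synthase, mt-Atp6 was at 50.3, 99.4 and 58.7 FPKM in AST and 819, 1082 and 1227 FPKM in P56-NSC. mt-Atp8 was at 1.17, 1.93 and 1.06 FPKM in AST and 21.2, 73.6 and 21.7 FPKM in P56-NSC, with P56-NSC library 2 high in mt-Atp8. mt-Atp8 and mt-Atp6 overlap, as do mt-Nd4l and mt-Nd4, so the split of reads within these pairs is uncertain.

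The 2 ribosomal RNAs of the mitochondrion rose most. mt-Rnr1 was at 132, 249 and 143 FPKM in AST and 16682, 16699 and 18214 FPKM in P56-NSC (log2 change 6.67, SE 0.36, limma adjusted p = 3.92e-09). mt-Rnr2 was at 251, 401 and 243 FPKM in AST and 15912, 16037 and 16813 FPKM in P56-NSC. They took 0.0513%, 0.0821% and 0.0513% of reads in AST and 3.20%, 3.07% and 3.39% in P56-NSC, while the mitochondrial messengers took 2.88%, 4.60% and 3.11% in AST and 13.3%, 14.5% and 13.5% in P56-NSC. The ratio of summed ribosomal to summed messenger FPKM was 0.0153 to 0.0164 in AST and 0.210 to 0.247 in P56-NSC, so the 2 kinds of RNA did not rise in step. The mean share of all mitochondrial genes was 3.60% ± 0.955 (SD, n = 3) in AST and 17.1% ± 0.548 (SD, n = 3) in P56-NSC, a difference of 13.4 percentage points. The exact two-sided permutation test over 3 against 3 libraries gave p = 0.1, the smallest p that it allows. Leaving mitochondrial genes out while keeping the authors' scaling gave 5817 calls at 2-fold or more among 14334 nuclear genes, with 53.8% higher in P56-NSC. Scaling each library by its nuclear FPKM gave 5624, with 56.05% higher. With that scaling the median log2 change of the astrocyte list was 3.40 (3.36 in the authors' scaling), that of the myelin list 5.95 (6.00) and that of the matrix list -3.696 (-3.82). Of the genes named with a test and on the nuclear genome, 259 kept direction and call, and Pax6, Notch3 and Arhgef17 were no longer called.

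**Figure D5:**
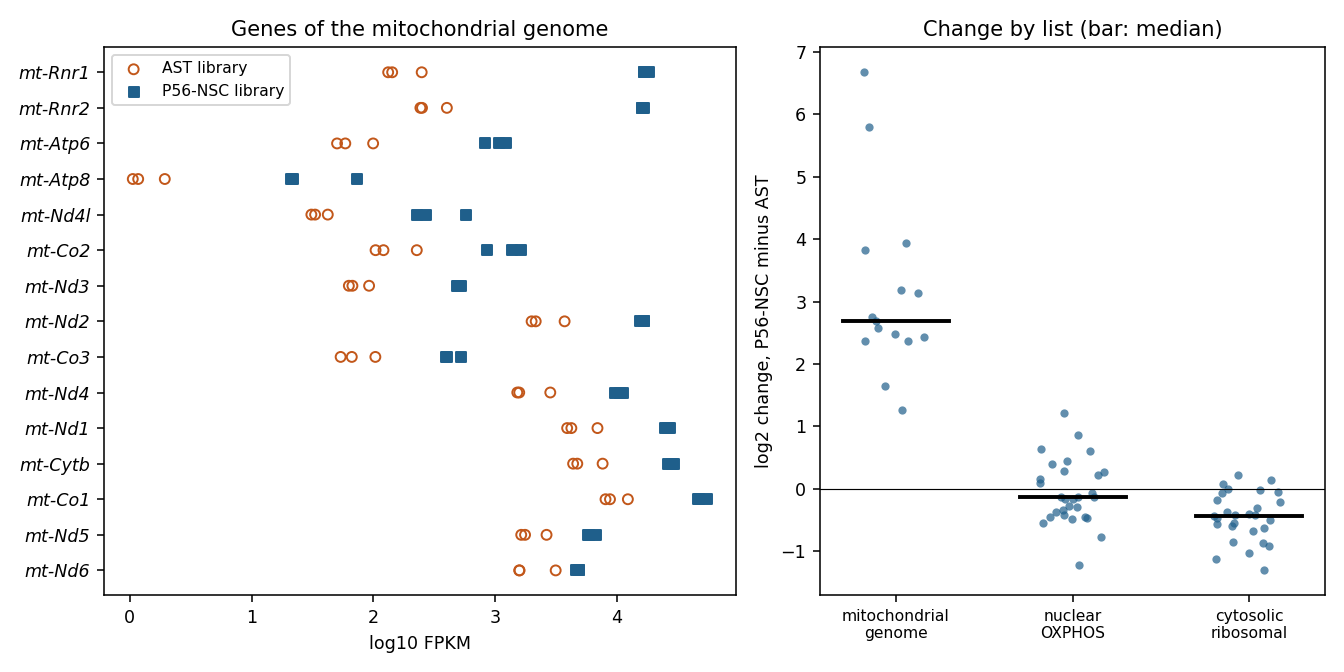
Left, log10 FPKM of the 15 genes of the mitochondrial genome in each library, AST as open orange circles and P56-NSC as filled blue squares, ordered by change with the largest at the top. Right, log2 change of each gene in 3 lists, with black bars at the medians of 2.69, -0.14 and -0.43. The mitochondrial genes lie above all of the nuclear genes of oxidative phosphorylation and of the cytosolic ribosomal protein genes.

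Among the nuclear genes of oxidative phosphorylation, Cox8a rose, at 479.8, 701 and 511 FPKM in AST and 1238, 1262 and 1387 FPKM in P56-NSC (log2 change 1.22, SE 0.18, limma adjusted p = 4.5e-05). Cycs, cytochrome c, fell, at 57.1, 79.3 and 59.1 FPKM in AST and 26.1, 26.4 and 29.1 FPKM in P56-NSC. Cox4i1 was at 295, 428 and 287 FPKM in AST and 599, 634 and 586 FPKM in P56-NSC and was called below 2-fold. Without AST library 2, 2 of these genes rose, against 1 with it. Ndufs3 was listed at 0 in all 6 libraries, although every cell uses it, so 0 in this table need not mean absence. Of 28 cytosolic ribosomal protein genes 3 fell and none rose (median -0.43); without AST library 2 only 1 fell, and with the same FPKM sum in every library 12 fell. Rplp0 was at 891, 918 and 866 FPKM in AST and 348, 341 and 393 FPKM in P56-NSC. Rplp1 was at 1939, 2726 and 1881 FPKM in AST and 2354, 2543 and 2625 FPKM in P56-NSC and was not called, but its sign turned with the scaling, since with the same FPKM sum it was called lower (-0.29), with quantile normalization lower (-0.60) and without AST library 2 higher (0.39). Ribosomal protein genes have many processed pseudogenes, so their reads are uncertain.

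Of 21 tested genes of cholesterol synthesis and uptake 4 fell (19.05%), near the 18.7% of all genes, and none rose. Without AST library 3, with quantile normalization or with the same nuclear FPKM sum 2 fell, and with the same FPKM sum or with voom 7 fell. Sqle, which oxidises squalene, was at 34.9, 33.4 and 37.7 FPKM in AST and 16.9, 16.7 and 17.4 FPKM in P56-NSC. Hsd17b7, a later enzyme of the pathway, was at 19.6, 17.5 and 20.98 FPKM in AST and 5.06, 6.13 and 5.17 FPKM in P56-NSC. Of 12 apolipoprotein and sterol export genes 9 rose and 2 fell. Apoe, the main lipid carrier of the brain, was at 509.9, 711 and 547 FPKM in AST and 3664, 3892 and 3777 FPKM in P56-NSC (log2 change 2.69, SE 0.21, limma adjusted p = 1.49e-07). Apod was at 0.694, 1.26 and 0.585 FPKM in AST and 253, 201 and 309 FPKM in P56-NSC. Abca2, a transporter of oligodendrocytes, was at 5.66, 4.62 and 6.15 FPKM in AST and 78.3, 76.7 and 79.01 FPKM in P56-NSC. Lpl, lipoprotein lipase, was at 6.15, 7.31 and 6.71 FPKM in AST and 0.539, 0.428 and 0.539 FPKM in P56-NSC.

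Of 16 metallothionein and antioxidant genes 3 rose (18.75%) and 5 fell (31.25%), against 22.0% and 18.7% of all genes. Hmox1, haem oxygenase, was at 404, 526 and 423 FPKM in AST and 7.47, 6.48 and 8.43 FPKM in P56-NSC (log2 change -5.74, SE 0.23, limma adjusted p = 2.39e-10). Txnrd1 was at 74.5, 53.6 and 78.5 FPKM in AST and 9.31, 10.6 and 10.04 FPKM in P56-NSC. Mt1 and Mt2, the metallothioneins, rose, with Mt1 at 259.6, 414 and 243 FPKM in AST and 1144, 1076 and 1317 FPKM in P56-NSC. Of 20 genes of the ATF4 and ER stress responses 11 fell and 1 rose. Hspa5, the chaperone BiP, was at 237, 241 and 236 FPKM in AST and 59.8, 52.5 and 63.8 FPKM in P56-NSC. Psat1, an enzyme of serine synthesis that astrocytes use, rose, at 30.9, 24.5 and 30.1 FPKM in AST and 134, 134 and 144 FPKM in P56-NSC. Fos, Fosb, Junb and Egr1, immediate early genes that dissociation of tissue can also induce, were not called. Fos was at 38.1, 42.7 and 39.7 FPKM in AST and 50.1, 42.99 and 52.1 FPKM in P56-NSC. Egr1 was at 29.8, 29.6 and 31.6 FPKM in AST and 39.4, 36.5 and 37.7 FPKM in P56-NSC. Arc, an immediate early gene of neurons, rose, at 0.839, 0.839 and 0.845 FPKM in AST and 15.9, 17.996 and 14.95 FPKM in P56-NSC. Egr3 and Egr4 rose as well (2.12 and 2.24). Ier3 was 1 of the 3 that fell, at 96.4, 97.1 and 92.03 FPKM in AST and 5.09, 4.24 and 4.83 FPKM in P56-NSC.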

How the data were processed

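The members, gene lists and tests were chosen with earlier results of these data known. Libraries were made with the NEBNext Ultra kit, per the labels' protocols. The authors deposited 1 table of FPKM values per gene for 12 libraries. Bowtie 0.12.2 is listed with mm8 and mm9 among the tools and builds, per the submitters' processing notes, whereas 99.5% of 55240 shared gene IDs have the coordinates of GENCODE M21 on GRCm38. No counting tool is given in these sources. Multiplied by gene length, all values came out as whole reads within a tolerance of 0.01, from which depth and read shares were taken. Limma 3.58.1 (trend, 12 libraries in 1 fit, 8 residual degrees of freedom) was run on log2(FPKM + 1) with Benjamini-Hochberg adjustment over all 14367 genes, and tested on simulated data. Named genes were the 15 largest rises and 15 largest falls whose higher group averaged 10 FPKM or more, the first 5 members of each list, its 4 largest called changes in each direction and the mitochondrial genes. Another 61 list genes were named after their values were seen. Promoters came from RefSeq. Alternatives changed the pseudocount, filter, scaling, libraries, test and replicate block. Some genes are not reported here.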

Additional observations from a re-analysis of the deposited data

How the results depend on the processing

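The counts of calls were recomputed under 20 alternatives. Of these, 3 were chosen after seeing the data: nuclear genes alone, voom with the library totals that the authors' values imply, and a fit of 6 libraries without AST library 2. Over the fits that left out 1 library each, 10452 to 10818 genes were called, 5115 to 5277 of them higher and 5329 to 5541 lower in P56-NSC. At 2-fold or more the range was 5798 to 5911, with 3137 to 3178 higher and 2621 to 2738 lower. The difference in mitochondrial share ranged from 13.1 to 13.997 points, and was 29.4 points as a share of summed FPKM. With a filter at a mean of 5 FPKM, which tests fewer genes (8047), 6328 were called, 2578 higher and 3750 lower, and 3451 at 2-fold or more, 1572 higher. Genes lower at 2-fold or more numbered 4223 with the same FPKM sum and 4484 with limma's voom on recovered reads; the cause was not tested. Of all calls, 48.7% were higher in the authors' scaling, 33.3% with the same sum and 37.8% with voom.

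The libraries share replicate numbers but nothing in the labels ties them together. Deviations of same-numbered libraries correlated at 0.034, -0.130 and -0.135, and those of libraries with different numbers at -0.132 to 0.168. With 3 libraries in each group, these values cannot decide whether the numbers pair them. With the replicate number as a block 11026 genes were called, 5848 at 2-fold or more.

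Of 277 genes named with a test, 246 kept direction and call under each alternative that tested them, and 31 changed in 1 or more. Rplp1 reversed to -0.605 under quantile normalization and to -0.286 with the same FPKM sum, and Tyrobp to -0.392 with the same sum; the cause was not tested. Quantile normalization also left 9 of 15 mitochondrial genes called at 2-fold or more, and 3 reads were taken as the floor for a gene listed at 0. AST library 2 differed with gene length, so changes near 2-fold in very short or long genes are less firm.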

Other observations

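Long noncoding RNAs leaned towards P56-NSC. Of 673 tested, 269 rose (40.0%) and 85 fell (12.6%), with a median log2 change of 0.70, against 22.0% and 18.7% of all genes. Of these RNAs 329 had a mean below 1 FPKM in AST and 93 had one below 1 FPKM in P56-NSC, so many could only enter through P56-NSC. Processed pseudogenes leaned the other way, with 43 of 696 higher (6.2%) and 122 lower (17.5%). They can share reads with their parent genes. Of 7 tested long noncoding RNAs on a named list 3 rose and 2 fell, and without AST library 2 only 1 fell.

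Of 874 tested transcription factors 141 rose (16.1%) and 116 fell (13.3%), smaller shares than over all genes in both directions. The bZIP family had 5 of 42 higher and 12 lower, and the bHLH family 17 of 56 higher and 11 lower. The factors named next were chosen after their values were seen, from among those with the largest changes. Klf15, a glucocorticoid target, rose from 1.11, 1.54 and 1.18 FPKM in AST to 34.1, 30.1 and 38.98 FPKM in P56-NSC. Hlf, a clock-related bZIP factor, rose from 0.187, 0.148 and 0.137 FPKM to 25.7, 28.7 and 24.6 FPKM. Dbx2, a homeobox factor, rose from 0.395, 0.441 and 0.264 FPKM to 19.1, 22.5 and 17.3 FPKM. Scrt1, a zinc finger factor of neurons, rose from 0.0681, 0.0676 and 0.209 FPKM to 33.2, 39.8 and 30.1 FPKM. Maff, a small Maf bZIP factor, fell from 121, 143 and 122 FPKM to 2.09, 1.66 and 2.53 FPKM. Atoh8, a bHLH factor, fell from 52.1, 65.3 and 50.7 FPKM to 0.781, 0.497 and 0.799 FPKM. Hmga2, a chromatin protein of fetal stem cells, fell from 18.4, 15.6 and 17.5 FPKM to 0.00851, 0 and 0.00897 FPKM. These 7 factors were taken from called genes whose groups did not overlap, so their separation was set by that choice.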
